A study of Mus musculus with 2 samples.

Results

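The Kruppel-like factor (KLF) family was followed through 9 named genes, Klf1, Klf2, Klf3, Klf4, Klf5, Klf6, Klf9, Klf10 and Klf13, of 22372 protein-coding genes with an annotated start. Chromatin accessibility around them was read from DNase I hypersensitive sites, stretches of DNA that the nuclease DNase I can reach, deposited as lists of peaks on the mouse mm9 assembly. A peak belonged to a gene when its summit lay in the gene body or within 25 kb on either side, which gave 364 of 400000 peaks. G1E-ER4 lists 1 and 2 held 102 and 78 of them, and G1E lists 1 and 2 held 92 and 92. Overlapping peaks of any lists (1 bp or more) were joined into merged regions, and 126 of 188044 merged regions belonged to the 9 genes, 22 to Klf1 and Klf3 and 104 to the other 7. Within a list each peak was given the percentile of its signal (100 for the strongest), and promoter sites were kept apart from distal ones, save for Klf1 peaks named below.

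KLF proteins are zinc finger transcription factors that bind CACCC and related GC-rich boxes in promoters and enhancers, and their regions outside the zinc fingers make them activators or repressors. Klf1, the erythroid founder of the family, activates adult beta-globin and many other red cell genes. Klf3 binds the same boxes, represses through the corepressor CtBP and is itself activated by Klf1 in mouse erythroid cells.

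The G1E-ER4 sample came from a mouse erythroid cell line in which Gata1, the factor that drives red cell maturation, is restored in a form switched on by estradiol, and it was harvested following 24 h of 10 nM beta-estradiol. The G1E sample came from erythroid progenitor cells that lack Gata1, with no treatment. Both are labelled as male, of strain 129 and of embryonic stem cell stage, and each state was 1 sample with 2 peak lists of 100000 peaks. The line, its restored gene and estradiol are confounded and cannot be told apart. Whether both lists of a sample stem from separate cultures is not labelled, so their spread may be technical. Since 4 lists allow only 3 pairings, a p-value for the states could not fall under 0.333, and none is given. Values of every list are shown instead, with list 1 before list 2 in each pair, beside the share of all genes or regions that met the same rule.

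The lists were unlike in ways that touch the values below. Peaks had median widths of 579 and 836 bp in G1E-ER4, against 520 and 646 bp in G1E. The mean GC content of the peaks was 48.6 and 51.2% in G1E-ER4, against 51.5 and 49.4% in G1E, and promoters made up 53.0 and 77.9% of the strongest 10% of peaks in G1E-ER4 and 71.6 and 69.9% in G1E. Of the 5 erythroid promoters reported, those of Tal1, Epor and Slc4a1 had a summit within 1000 bp of a start in all 4 lists, and those of Zfpm1 and Hbb-b1 in 3. No list had one at the lymphoid genes Cd2 and Cd3e, the liver genes Alb and Afp or the neural gene Neurod1, while the neural gene Pax6 had one in all 4. Summits in all 4 lists were thus present at 3 of 5 erythroid genes and at 1 of the 6 genes of other lineages named here.

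Of the 9 Klf genes, 7 had a peak that reached within 1000 bp of a start in all 4 lists, against 51.3% of all protein-coding genes, and Klf4 and Klf5 were the exceptions. Averaged over the 4 lists, the strongest such peak stood at percentile 99.3 at Klf13, 99.0 at Klf10, 98.6 at Klf6, 98.5 at Klf3, 98.0 at Klf9, 93.1 at Klf1 and 84.1 at Klf2. The first 5 lie within the spread of single lists from each other, while all 4 values of Klf1 lay below all 4 of Klf3 and of Klf10, and all 4 of Klf2 below all 4 of Klf1. Genes with a summit within 1000 bp of a start in all 4 lists had a median of 93.6 on the same average, with 59.2 and 98.7 as the 5th and 95th percentiles. Beside these genes, the value of Klf1 lay near the median, that of Klf2 below it and those of Klf13 and Klf10 above the upper bound. Klf1 is not itself among them, since its summit lay over 1000 bp from the start in G1E-ER4 list 2 and G1E list 1. Bounds by the any-base rule are not given.

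**Figure D1:**
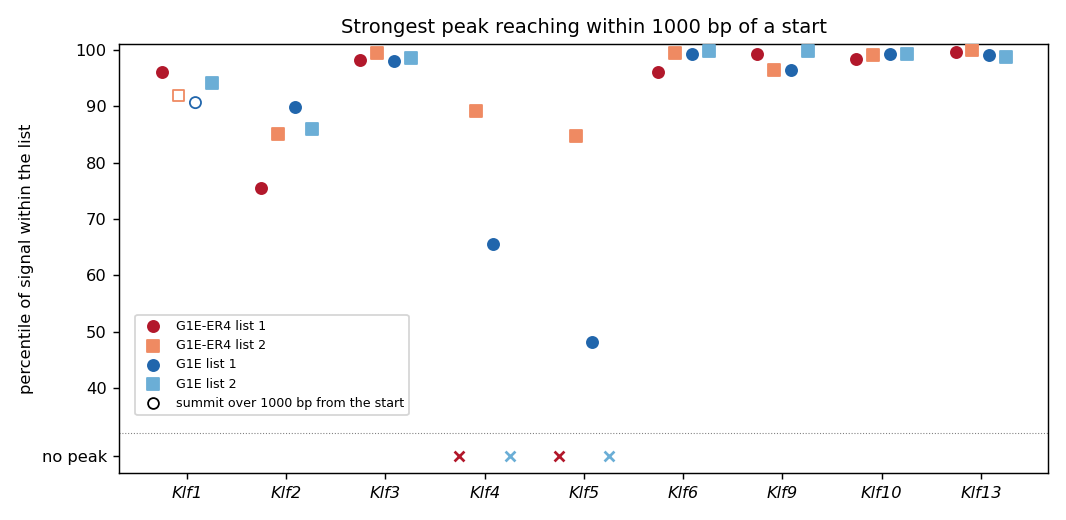
Each point is the percentile (y axis, within its list) of the strongest peak that reached within 1000 bp of an annotated start of a Klf gene (x axis), in the G1E-ER4 lists (red and orange) and the G1E lists (dark and light blue); crosses mark lists with no such peak and open symbols a summit over 1000 bp away. The 7 genes with a peak in all 4 lists sit between 75.5 and 99.9, and Klf4 and Klf5 have a point in G1E-ER4 list 2 and G1E list 1 only.

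Promoter levels differed little between the states. Among genes with a promoter summit in all 4 lists, both G1E-ER4 percentiles exceeded both G1E percentiles at 12.7% and lay below both at 13.9% of 10198 genes. Of the 6 Klf genes with such a summit in all 4 lists, Klf13 was higher in G1E-ER4 and Klf2 and Klf10 were lower, so few genes stand behind each direction. The median difference of all such genes, G1E-ER4 less G1E, was -0.88 percentile points, with -12.4 and 10.7 as the 5th and 95th percentiles, and the 6 Klf genes ran from -7.57 at Klf2 to 0.82 at Klf13, inside these bounds.

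In every list a peak that spans the Klf1 start was in the top 10% of peaks, but its summit stood in different places. The strongest peak stood at percentiles 96.1 and 91.9 in G1E-ER4, against 90.6 and 94.0 in G1E, so the states overlapped, and the means differed by 1.65 points. These peaks all lay in 1 region, chr8:87424147-87427824, which spans the start at position 87425827 and the first part of the gene (chr8:87425827-87429194, plus strand). The summit of G1E-ER4 list 1 lay at -8 bp and that of G1E list 2 at 17 bp from the start. In G1E-ER4 list 2 and G1E list 1 it lay at 1248 and 1276 bp, inside the gene, so a rule that asks for a summit within 1000 bp finds the Klf1 promoter in 2 lists only. The shift followed pairs of lists that cross the states. The 2 lists with the downstream summit are those of higher mean GC content, and the 201 bp around the summit had a GC content of 50.2% at the start and 70.1% at the downstream site; the part of this in the shift was not tested.

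The letters at the 2 Klf1 summits, read from the mm9 reference genome like all sequences here, show how unlike they are. Capitals mark matches to the CACCC-type pattern CCNCNCCC or to a GATA pattern (GATA with A or T before it and A or G after it) on either strand, and the stretch at the start stops where the transcript begins. The pattern CCNCNCCC is stricter than CACCC alone, so a bare CACCC outside it stays in small letters and is not counted as a CACCC-type match.
Klf1 start, chr8:87425719-87425826, plus strand: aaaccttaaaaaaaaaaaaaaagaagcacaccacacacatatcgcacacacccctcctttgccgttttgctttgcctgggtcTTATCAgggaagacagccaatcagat
Klf1 downstream summit, chr8:87427003-87427203, plus strand: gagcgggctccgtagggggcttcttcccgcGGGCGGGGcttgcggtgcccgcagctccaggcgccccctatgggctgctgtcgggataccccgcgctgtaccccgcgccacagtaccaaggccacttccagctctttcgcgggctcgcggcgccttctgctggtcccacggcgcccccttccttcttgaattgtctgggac
The stretch at the start held 1 GATA match and a bare CACCC, but no match to CCNCNCCC. The 201 bp window there also held the E-box and GATA pattern, CTG, then 7 to 9 bases, then GATA. The downstream stretch, in the coding part of the gene, held 1 CACCC-type match and no GATA match. Among promoter regions in all 4 lists, 62.8% held CCNCNCCC within 100 bp of the strongest summit, 12.8% a GATA pattern and 3.69% the E-box and GATA pattern. Klf1 also had the lowest CpG content of the 9 genes relative to its base composition. Its observed to expected CpG ratio over 500 bp on each side of the start was 0.0784, lower than at all but 4.26% of 22369 genes (median 0.553), while the other 8 Klf genes had ratios from 0.713 at Klf2 to 1.03 at Klf9.

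The Klf1 window was rich in sites shared by both states, but it also holds starts or parts of 4 other genes, Dnase2a, Gcdh, Mast1 and Syce2. Of its 13 merged regions, 8 were in all 4 lists, where 17.2% of merged regions in the windows of all protein-coding genes were. None of the 13 was in both lists of a state and in no list of the other. The strongest lay at the promoter of Dnase2a, which encodes the DNase of macrophages that degrades the nuclei shed by red cell precursors (chr8:87431388-87435127), at percentiles 98.1 and 95.4 in G1E-ER4, against 95.6 and 98.8 in G1E. Next to it, chr8:87435265-87440854, with its best summit in an exon of Dnase2a, stood at 96.4 and 94.0 in G1E-ER4, against 95.4 and 94.6 in G1E. The promoter of Gcdh, which encodes glutaryl-CoA dehydrogenase (chr8:87415747-87419006), stood at 88.6 and 93.1 in G1E-ER4, against 91.9 and 96.4 in G1E. All of these overlapped between the states and did not differ beyond the spread of the lists.

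Of the 8 shared regions at Klf1, 2 had both G1E-ER4 percentiles above both G1E percentiles, a rule that 19.3% of shared regions in gene windows met, and none had them below, which 15.8% did. The first, in an intron of the kinase gene Mast1 (chr8:87450915-87454812), stood at 93.7 and 87.8 in G1E-ER4, against 85.6 and 81.9 in G1E. The second, with its best summit in an exon of Mast1 (chr8:87441206-87443007), stood at 65.3 and 74.2 in G1E-ER4, against 58.2 and 41.4 in G1E. The others at Klf1 overlapped, as at an intron of Syce2, a meiosis gene (chr8:87401284-87402028), with 72.3 and 18.8 in G1E-ER4, against 86.3 and 68.4 in G1E, and at chr8:87448495-87450529 with 80.7 and 64.0 in G1E-ER4, against 83.4 and 39.2 in G1E. The stretch around the summit of the first is shown because it carries 5 CACCC-type matches, most of them overlapping, the most of any shared region in the Klf1 and Klf3 windows.
Mast1 intron site in the Klf1 window, chr8:87452640-87452840, plus strand: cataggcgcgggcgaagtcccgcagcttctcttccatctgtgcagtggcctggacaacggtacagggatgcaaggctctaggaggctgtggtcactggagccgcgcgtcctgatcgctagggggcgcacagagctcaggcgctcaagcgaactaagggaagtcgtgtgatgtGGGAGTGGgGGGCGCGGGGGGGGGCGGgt
It lies 26913 bp from the start of Klf1 and held no GATA match.

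**Figure D2:**
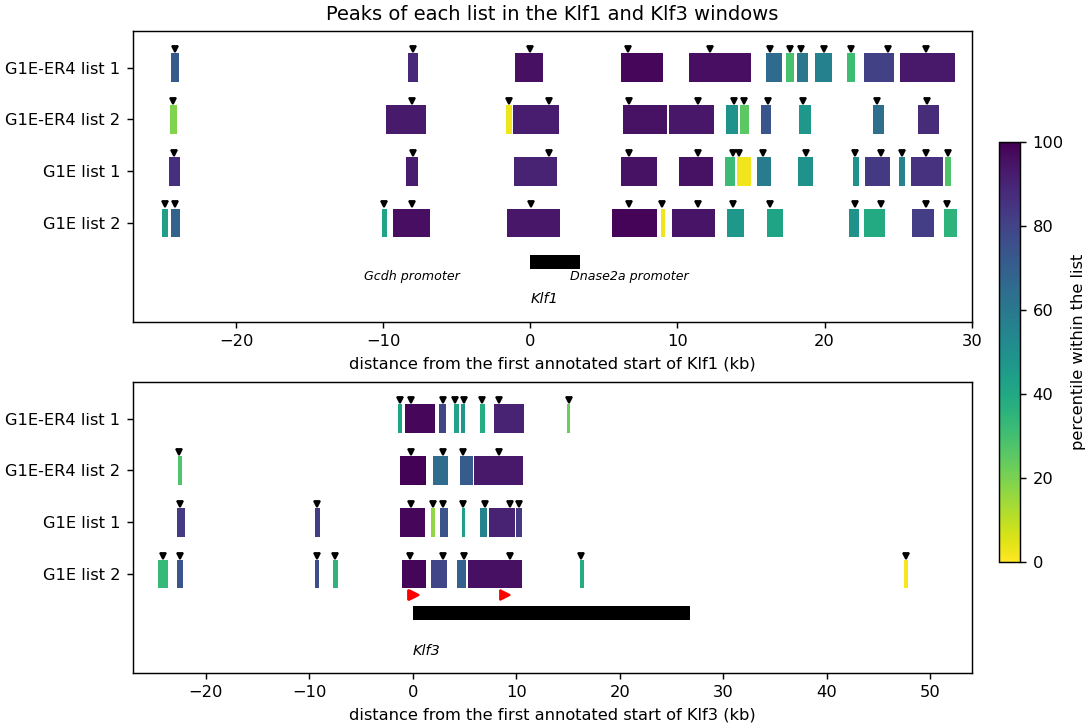
Bars are the peaks of each list, G1E-ER4 lists above G1E lists, in the windows of Klf1 (top) and Klf3 (bottom), placed by distance from the first annotated start in kb and coloured by percentile within the list; triangles mark summits, black bars the genes and red arrowheads the starts of Klf3. At Klf1 the start peak has its summit near 0 in 2 lists and over 1 kb downstream in the other 2, and at the third start of Klf3 the G1E-ER4 summits lie left of the G1E summits.

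Klf3 had a stronger promoter than Klf1 and fewer distal sites. Its first start region (chr5:65193249-65198053) stood at percentiles 98.1 and 99.5 in G1E-ER4, against 98.1 and 98.6 in G1E. The states overlapped, and their means differed by 0.47 points. Summits lay within 78 bp of each other in the 4 lists, upstream of the first of 3 annotated starts (65194628, 65194762 and 65203578; gene chr5:65194628-65221368, plus strand). A peak between the starts, 2963 and 2902 bp from the first start in G1E-ER4, against 2890 and 2914 bp in G1E, stood at 79.3 and 65.1 in G1E-ER4, against 74.4 and 79.3 in G1E. In the whole Klf3 window 2 of 9 regions were in all 4 lists, both at starts.

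At the third Klf3 start the states overlapped in peak strength, but their summits stood apart. The region (chr5:65198597-65205400) had its best peak at percentiles 90.3 and 93.6 in G1E-ER4, against 90.4 and 95.9 in G1E, which overlapped. The summits lay 572 and 596 bp upstream of the third start in G1E-ER4, against 440 and 448 bp downstream of it in G1E. They were 24 bp apart within G1E-ER4, 8 bp apart within G1E and at least 1012 bp apart between the states. Of the 32 Klf regions in all 4 lists it was the only one (3.12%) with summits within 150 bp of each other inside each state and over 500 bp apart between states, where 285 of 27271 such regions in gene windows (1.05%) met the rule. This pattern was chosen after the positions were seen, and with 1 gene it says nothing about the family. The stretches around both summits are shown for the Klf1-type boxes they hold.
Klf3 start 3, G1E-ER4 list 1 summit, chr5:65202906-65203106, plus strand: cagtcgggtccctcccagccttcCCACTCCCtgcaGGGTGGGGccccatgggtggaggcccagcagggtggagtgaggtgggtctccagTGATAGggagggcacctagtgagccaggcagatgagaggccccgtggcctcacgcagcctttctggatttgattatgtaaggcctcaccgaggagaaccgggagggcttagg
Klf3 start 3, G1E list 2 summit, chr5:65203926-65204126, plus strand: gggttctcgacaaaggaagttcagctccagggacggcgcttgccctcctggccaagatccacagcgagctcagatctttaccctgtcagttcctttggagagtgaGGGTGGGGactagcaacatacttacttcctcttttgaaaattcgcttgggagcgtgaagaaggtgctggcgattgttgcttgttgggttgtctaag
The G1E-ER4 summit stretch held 2 CACCC-type matches and 1 GATA match with a GC content of 64.2%, and the G1E one held 1 CACCC-type match and no GATA match with 52.2%. For comparison, the first start stretch held 3 CACCC-type matches, some of them overlapping, and had a GC content of 81.6%.
Klf3 start 1, G1E-ER4 list 2 summit, chr5:65194355-65194555, plus strand: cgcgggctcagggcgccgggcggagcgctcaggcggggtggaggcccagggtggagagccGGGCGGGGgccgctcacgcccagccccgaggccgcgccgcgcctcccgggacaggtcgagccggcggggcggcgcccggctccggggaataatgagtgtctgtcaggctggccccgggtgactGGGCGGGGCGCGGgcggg

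Upstream of Klf3 lay the only region of Klf1 and Klf3 with peaks in both lists of 1 state and neither list of the other. The region chr5:65185168-65185636, between genes and with its best summit at -9227 bp from the first start, had peaks at percentiles 82.4 and 76.2 in G1E lists 1 and 2 and none in either G1E-ER4 list. Its summit stretch is shown because it has the highest mean percentile of the 8 Klf regions of this kind.
Klf3 upstream site, chr5:65185301-65185501, plus strand: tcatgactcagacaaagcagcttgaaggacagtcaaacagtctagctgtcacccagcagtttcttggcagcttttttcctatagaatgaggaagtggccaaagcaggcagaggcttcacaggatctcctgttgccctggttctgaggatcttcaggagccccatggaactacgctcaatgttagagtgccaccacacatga
It held a bare CACCC, but no match to CCNCNCCC and no GATA match. Farther out, chr5:65171883-65172672 stood at 27.6 in G1E-ER4 list 2, with no peak in G1E-ER4 list 1, and at 82.8 and 73.5 in G1E. Regions of this kind were rare throughout. In both G1E lists and neither G1E-ER4 list stood 5 of the 126 Klf regions, where 3.86% of regions in gene windows did, and in both G1E-ER4 lists and neither G1E list 3 of 126, where 2.5% did, so the Klf genes lay near the share of all genes. With 1 list left out the G1E-only count ran from 7 to 21, 21 without G1E list 1, 13 without G1E list 2 and 11 without G1E-ER4 list 1. The G1E-ER4-only count ran from 5 to 27, 27 without G1E-ER4 list 2, 14 without G1E-ER4 list 1 and 5 without G1E list 1 and 5 without G1E list 2. Leaving out a list loosens the rule, since fewer lists have to meet it, so both counts could only stay or rise. The share of all regions under the looser rule is not given.

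The other one-state regions were weaker. At Klf6, a broadly expressed factor named as a tumour suppressor in human cells, chr13:5844313-5845537 stood at 67.1 and 77.5 in G1E. At Klf9, a factor induced by thyroid hormone and glucocorticoids, introns held chr19:23229668-23230739 at 69.3 and 74.1 and chr19:23237014-23237601 at 48.7 and 48.6 in G1E. At Klf10, a gene induced early by TGF-beta, chr15:38218542-38219237 stood at 2.30 and 64.5 in G1E. The G1E-ER4 regions were chr14:99707010-99707759 in an intron of Klf5 (61.2 and 5.50), chr15:38204386-38205730 at Klf10 (67.8 and 27.6) and chr7:71088953-71089508 at Klf13 (42.0 and 6.08). In each of these 3 G1E-ER4 regions list 2 stood far below list 1.

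The direct comparison of Klf1 and Klf3 with the other 7 genes depended on the rule for a promoter peak and on Klf4 and Klf5. With any base of a peak within 1000 bp of a start, and a missing peak counted as 0, Klf1 and Klf3 averaged 97.1 and 95.7 in G1E-ER4, against 94.3 and 96.3 in G1E. The other 7 averaged 67.0 and 93.4 in G1E-ER4, against 85.3 and 69.1 in G1E. Klf1 and Klf3 were thus ahead by 16.2 points in G1E-ER4 and 18.1 in G1E, and in single lists by 30.1 and 2.30 points in G1E-ER4 and by 9.0 and 27.2 in G1E. The SD between lists was 19.7 in G1E-ER4, above the difference there, and 12.9 in G1E, below it. Without Klf4 and Klf5, the difference was 1.53 in G1E-ER4 and -1.40 in G1E, and it was above 0 in G1E-ER4 list 1 alone. With the summit itself within 1000 bp, which drops Klf1 in 2 lists, Klf1 and Klf3 averaged 73.4 in G1E-ER4 and 72.7 in G1E and the other 7 averaged 80.2 and 77.2. The differences were then -6.75 and -4.55 points, with an SD between lists of 52.2 and 44.9, and the one in G1E-ER4 was -43.6 without G1E-ER4 list 1 and 30.1 without G1E-ER4 list 2. The lead of Klf1 and Klf3 by the any-base rule thus rested on Klf4 and Klf5, and not only where their missing peaks counted as 0. In G1E-ER4 list 2 and G1E list 1 no peak was missing by that rule, and the leads there were 2.30 and 9.0.

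Distal sites, those with a summit over 1000 bp from every annotated start of any protein-coding gene, differed in strength between Klf1 and Klf3 and the others by less than the SD between lists. By this rule the Klf1 start peaks of G1E-ER4 list 2 and G1E list 1, with summits at 1248 and 1276 bp, counted as distal. They therefore entered both the any-base promoter values and the distal values and densities. The median percentile of distal sites, averaged over genes, was 57.2 in G1E-ER4 and 57.4 in G1E for Klf1 and Klf3, and 48.0 in G1E-ER4 and 49.5 in G1E for the other 7, where single lists had medians of 45.1 to 46.3 over all such peaks in gene windows. The difference was 9.26 points in G1E-ER4 with an SD between lists of 10.8, and 7.86 points in G1E with an SD of 19.2. Without G1E-ER4 list 2 it was 1.62 and without G1E-ER4 list 1 it was 16.9 in G1E-ER4, and without G1E list 1 it was -5.69 and without G1E list 2 it was 21.4 in G1E. Distal peaks per 10 kb of window numbered 1.23 and 1.13 in G1E-ER4, against 1.58 and 1.55 in G1E, for Klf1 and Klf3, lower in both G1E-ER4 lists. For the other 7 they numbered 1.35 and 0.985 in G1E-ER4, against 1.19 and 1.20 in G1E, which overlapped. In G1E the group means, 1.57 and 1.20, differed by more than the spread of the lists, with SDs of 0.0202 and 0.00675. Those SDs do not measure the spread between genes. The lead in G1E came from Klf1, while Klf3 lay below the mean of the other 7. Of the other 7, Klf2 (2.09 and 2.28) and Klf13 (2.24 and 2.53) stood near or above Klf1 in G1E. In G1E-ER4 the means were 1.18 and 1.17. With 10 kb flanks in place of 25 kb the order of the groups turned, at 0.856 for Klf1 and Klf3 and 1.41 for the other 7 in G1E-ER4 and at 1.12 and 1.46 in G1E. Klf1 had 1.69 and 1.87 in G1E-ER4, against 2.25 and 2.06 in G1E, and Klf3 had 0.782 and 0.391 in G1E-ER4, against 0.912 and 1.04 in G1E, so both were lower in G1E-ER4. Klf2 and Klf6 showed the same order, and Klf5 the opposite one, so 4 of the 9 genes were lower and 1 was higher, where 13.4% and 13.6% of 19449 genes with a distal peak in any list were. The surrounding 10 Mb moved alike, with log2 ratios of G1E-ER4 to G1E peaks of -0.17 at Klf1, -0.16 at Klf2, -0.15 at Klf3, -0.41 at Klf6 and 0.26 at Klf5. Ratios were also below 0 at Klf4 (-0.29), Klf9 (-0.20) and Klf10 (-0.08), which were not lower by this rule. The part of the surroundings in these densities was not tested.

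**Figure D3:**
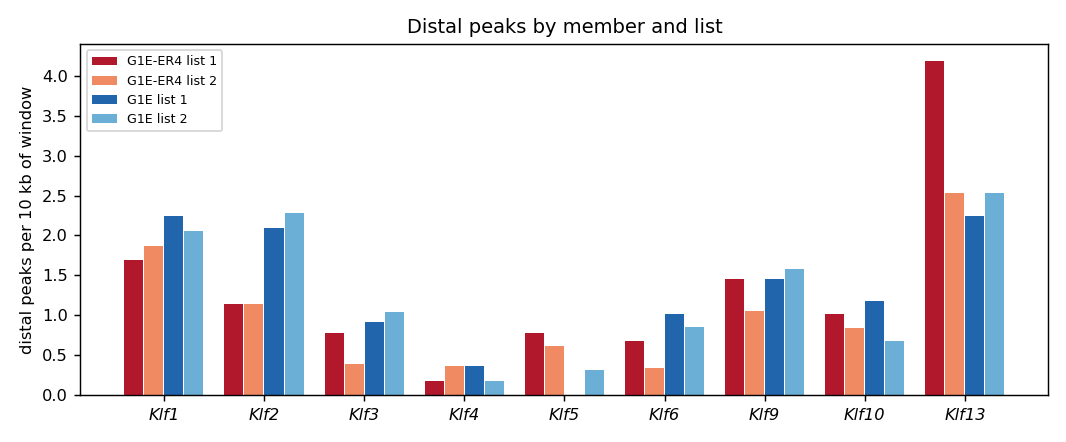
Bars give the distal peaks per 10 kb of window (y axis) for each Klf gene (x axis) in the G1E-ER4 lists (red and orange) and the G1E lists (dark and light blue). Klf13 in G1E-ER4 list 1 is the tallest at 4.19, Klf4 stays at or below 0.361 in every list, and Klf5 has no distal peak in G1E list 1.

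Klf2, which keeps T cells and endothelium quiescent and takes part in embryonic globin expression in mouse primitive red cells, had the weakest promoter of the 7. Its promoter (chr8:74840979-74844990) stood at percentiles 75.5 and 85.1 in G1E-ER4, against 89.8 and 86.0 in G1E, so both G1E-ER4 values lay below both G1E values and the means differed by -7.57 points. That promoter was the only one of its 20 regions in all 4 lists. Its strongest distal site (chr8:74857305-74858065) had peaks in G1E-ER4 list 2 at 88.2 and in G1E list 1 at 87.6 and in neither other list. Distal peaks per 10 kb were 1.14 and 1.14 in G1E-ER4, against 2.09 and 2.28 in G1E. The window also holds Eps15l1 and Gm10282.

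Klf4 and Klf5, which help to keep embryonic stem cells pluripotent and act in epithelia, were marked at their promoters by the same pair of lists. The Klf4 promoter (chr4:55544991-55546046) stood at 89.1 in G1E-ER4 list 2 and 65.6 in G1E list 1, and the Klf5 promoter (chr14:99697429-99698836) at 84.7 in G1E-ER4 list 2 and 48.1 in G1E list 1. Neither promoter was marked in G1E-ER4 list 1 or G1E list 2. The 2 lists with these peaks are again those of higher mean GC content. The stretches around the G1E-ER4 list 2 summits had GC contents of 75.6% at Klf4 and 77.6% at Klf5 and are shown beside that value. At Klf5 that summit lay 631 bp from the start. The summit of G1E list 1 lay at 91 bp, and the GC content there is not given. The part of GC content in the split was not tested.
Klf4 promoter, chr4:55545450-55545650, minus strand: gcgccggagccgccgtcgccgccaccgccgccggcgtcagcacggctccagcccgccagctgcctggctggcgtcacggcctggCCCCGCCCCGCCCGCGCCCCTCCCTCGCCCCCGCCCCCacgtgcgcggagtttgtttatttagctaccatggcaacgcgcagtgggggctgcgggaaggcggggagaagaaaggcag
Klf5 first intron, chr14:99698441-99698641, plus strand: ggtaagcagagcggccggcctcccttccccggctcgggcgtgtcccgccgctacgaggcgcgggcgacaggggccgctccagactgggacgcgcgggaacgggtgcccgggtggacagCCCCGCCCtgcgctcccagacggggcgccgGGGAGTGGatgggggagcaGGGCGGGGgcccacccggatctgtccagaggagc
The Klf4 stretch held 7 CACCC-type matches, many overlapping, and the Klf5 stretch 3. Around both genes few peaks were found. Klf4 had 1 and 2 distal peaks in G1E-ER4, against 2 and 1 in G1E, among them chr4:55525080-55525654, which stood at 93.5 in G1E-ER4 list 1, at 65.1 and 82.0 in G1E and had no peak in G1E-ER4 list 2. Klf5 had 5 and 4 in G1E-ER4, against 0 and 2 in G1E. No region of either gene was in all 4 lists.

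Klf6, Klf9 and Klf10 had strong promoters in every list with few state differences. The Klf6 promoter (chr13:5859561-5865392) stood at 96.1 and 99.3 in G1E-ER4, against 99.2 and 99.8 in G1E, which overlapped. The Klf9 promoter (chr19:23213718-23219020) stood at 99.2 and 96.4 in G1E-ER4, against 96.4 and 99.8 in G1E. Klf9 was the member apart from Klf1 and Klf13 with most distal sites in all 4 lists. They were chr19:23207583-23213101, before the start, at 90.7 and 90.1 in G1E-ER4, against 90.3 and 94.4 in G1E, and a pair in introns, of which chr19:23224245-23228574 stood at 79.5 and 89.8 in G1E-ER4, against 86.0 and 87.9 in G1E. The other, chr19:23220611-23222489, stood at 76.3 and 75.4 in G1E-ER4, against 65.3 and 81.4 in G1E. All of these overlapped between the states. A further Klf9 site, chr19:23248696-23249142, stood at 93.7 in G1E-ER4 list 1 and 70.1 and 54.9 in G1E but had no peak in G1E-ER4 list 2.

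At Klf10, which represses through the corepressor Sin3a, the promoter and a site inside the gene lay on opposite sides. The promoter (chr15:38227996-38233484) stood at 98.4 and 99.1 in G1E-ER4, against 99.2 and 99.3 in G1E, both G1E-ER4 values below both G1E values, with a mean difference of -0.51 points. Its summit lay at -102 bp from the first start in G1E-ER4 list 1 and at 1558, 1547 and 1560 bp in G1E-ER4 list 2 and G1E lists 1 and 2, close to another annotated start. Counting only summits within 500 bp of a start turned the difference to 49.2, since the other lists then had none. A region over an exon (chr15:38226587-38227616) stood at 87.6 and 87.0 in G1E-ER4, against 71.3 and 76.6 in G1E, a mean difference of 13.4 points, with summits within 31 bp in the 4 lists. The distal site chr15:38213213-38214514 stood at 89.8 and 85.9 in G1E-ER4, against 87.2 and 87.5 in G1E. The stretch around the summit of the exon site is shown since it lies in coding sequence.
Klf10 exon site, chr15:38227110-38227310, minus strand: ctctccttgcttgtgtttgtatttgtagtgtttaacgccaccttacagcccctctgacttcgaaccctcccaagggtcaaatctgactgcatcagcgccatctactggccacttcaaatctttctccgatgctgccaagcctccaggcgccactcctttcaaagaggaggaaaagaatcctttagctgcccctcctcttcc
It held no CACCC-type and no GATA match.

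**Figure D4:**
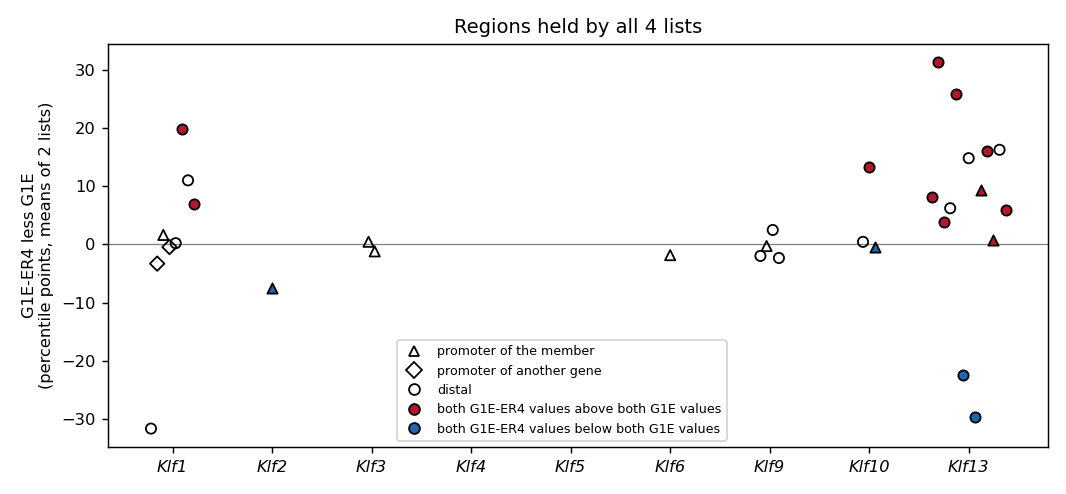
Each symbol is a region in all 4 lists, by gene (x axis), and its height is the mean G1E-ER4 percentile less the mean G1E percentile in points; filled symbols have both G1E-ER4 values above (red) or below (blue) both G1E values. Of 11 red symbols 8 belong to Klf13, and Klf4 and Klf5 have no symbol.

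Klf13, a repressor through Sin3a that takes part in red cell formation in mice, carried most of the regions that were higher in G1E-ER4. Over all 9 genes 32 of 126 regions were in all 4 lists (25.4%), and 11 of the 32 were higher in G1E-ER4 (34.4%) and 4 lower (12.5%), against 19.3% and 15.8% of such regions in gene windows. Promoter regions made up 11 of the 32, out of 14 promoter regions in the windows, where 58.7% of promoter regions of all genes were in all 4 lists, and 2 of these 11 were higher (15.9% of shared promoter regions were) and 2 lower (13.3%). Of 112 other regions 21 were in all 4 lists (18.8%, against 11.8%), of which 9 were higher (against 21.5%) and 2 lower (against 17.5%). Klf13 had 13 of the 32, of which 8 were higher (61.5%) and 2 lower. The other 8 genes had 19, of which 3 were higher (15.8%) and 2 lower (10.5%), close to the share of all gene windows. The count of higher regions over the 9 genes was 17 without G1E-ER4 list 2, and that of lower ones was 12, 11, 13 and 7 without G1E-ER4 lists 1 and 2 and G1E lists 1 and 2. Here too the rule is looser with a list left out, so the counts could only stay or rise.

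The higher Klf13 regions lay on both sides of its main start and through its introns (gene chr7:71031237-71083801, minus strand). The main promoter (chr7:71077935-71086994) stood at 99.5 and 99.9 in G1E-ER4, against 99.0 and 98.7 in G1E, with the promoter peak 7017 and 4537 bp wide in G1E-ER4, against 3915 and 4389 bp in G1E. In the introns, chr7:71040927-71043896 stood at 97.6 and 95.1 in G1E-ER4, against 93.4 and 91.8 in G1E. The region next to it, chr7:71037835-71040657, stood at 86.8 and 65.7 in G1E-ER4, against 44.8 and 44.9 in G1E, a mean difference of 31.4 points, the largest of the 11. A further intron region, chr7:71073774-71075398, stood at 92.5 and 89.0 in G1E-ER4, against 72.6 and 76.6 in G1E, 16.1 points apart. Upstream of the gene, chr7:71100267-71104243 stood at 89.8 and 86.9 in G1E-ER4, against 83.9 and 80.9 in G1E. The region that holds the second annotated start (chr7:71068398-71073523) stood at 74.6 and 75.7 in G1E-ER4, against 61.4 and 69.9 in G1E, by its strongest peak. Within 1000 bp of that start itself, a summit stood at 60.1 in G1E-ER4 list 1 and none in G1E-ER4 list 2, against 61.4 and 65.0 in G1E, so the higher values came from peaks farther off. The remaining higher regions were chr7:71052132-71054640 in an intron, at 78.4 and 83.8 in G1E-ER4, against 38.8 and 71.3 in G1E, and chr7:71018304-71023121 beyond the end of the gene, at 67.7 and 77.4 in G1E-ER4, against 63.2 and 65.6 in G1E. The lower ones were chr7:71054893-71060181, at 47.9 and 83.5 in G1E-ER4, against 85.5 and 90.8 in G1E, and chr7:71066364-71068207, at 63.9 and 24.2 in G1E-ER4, against 75.9 and 71.8 in G1E. The best summits of the G1E-ER4 lists lay 1755 bp apart in the first and 620 bp apart in the second. Those of the G1E lists lay 21 and 29 bp apart, so the values compared do not all come from 1 position.

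A pair of these intron sites is shown for its GATA matches.
Klf13 intron site 1, chr7:71073974-71074174, minus strand: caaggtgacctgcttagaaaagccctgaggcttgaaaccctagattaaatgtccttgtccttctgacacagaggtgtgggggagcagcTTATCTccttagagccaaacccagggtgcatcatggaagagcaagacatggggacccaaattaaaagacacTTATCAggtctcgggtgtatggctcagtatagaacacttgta
Klf13 intron site 2, chr7:71041846-71042046, minus strand: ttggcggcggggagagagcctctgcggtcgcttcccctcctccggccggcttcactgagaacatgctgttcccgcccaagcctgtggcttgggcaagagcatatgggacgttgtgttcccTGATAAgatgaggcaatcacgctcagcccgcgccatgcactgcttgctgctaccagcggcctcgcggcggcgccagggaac
Site 1, in chr7:71073774-71075398, held 2 GATA matches and site 2, in chr7:71040927-71043896, held 1, and neither held a match to CCNCNCCC. Site 1 held bare CACCC boxes on the other strand. Of the 8 higher Klf13 regions 6 and of the 2 lower ones 1 held a GATA pattern within 100 bp of the best summit, where 37.2% of the non-promoter and 12.8% of the promoter regions in all 4 lists of gene windows did. The 3 higher regions outside Klf13, at Klf1 and Klf10, held none.

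Klf13 lies in a stretch of chromosome 7 where the G1E-ER4 lists held more peaks. From 70 to 80 Mb they held 532 and 633 peaks and the G1E lists 259 and 253, a log2 ratio of 1.19, whereas the 10 Mb stretches of the other 8 genes had log2 ratios from -0.41 at Klf6 to 0.26 at Klf5. Klf13 itself had 45 and 27 peaks in its window in G1E-ER4, against 25 and 28 in G1E, so the excess was in G1E-ER4 list 1. Distal peaks per 10 kb were 4.19 and 2.53 in G1E-ER4, against 2.24 and 2.53 in G1E. The part of the surrounding stretch in the Klf13 values was not tested. Without Klf13, distal peaks per 10 kb of the other genes beside Klf1 and Klf3 were 0.800 in G1E-ER4 and 0.999 in G1E, against 1.17 and 1.20 with it.

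**Figure D5:**
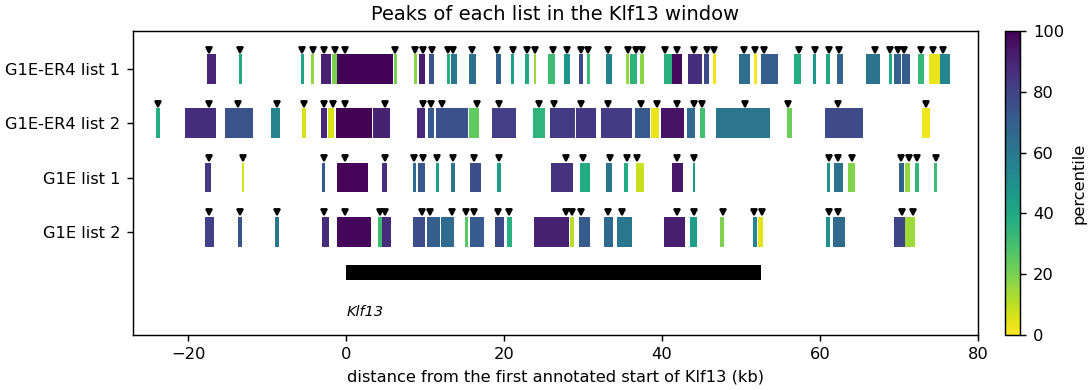
Bars are the peaks of each list, G1E-ER4 lists above G1E lists, around Klf13, placed by distance from its first annotated start in kb and coloured by percentile within the list, with triangles at the summits and a black bar for the gene. Every list has its strongest peak at the start and a strong one inside the gene where intron site 2 lies, and G1E-ER4 list 1 has the most peaks, 45.

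Over the family, binding patterns for its own members were common at promoters, as they were at promoters at large. Of 11 promoter regions in all 4 lists, counting those of other genes in the windows, 9 (81.8%) held CCNCNCCC within 100 bp of the best summit, against 62.8% of promoter regions in gene windows. Of 21 other regions in all 4 lists 9 (42.9%) did, against 31.1%. GATA patterns stood at 2 of 11 (18.2%, against 12.8%) and 9 of 21 (42.9%, against 37.2%). The E-box and GATA pattern stood at 2 of the 11, the Klf1 promoter and the region that holds the second start of Klf13. It stood at none of the 21, and the shares in gene windows were 3.69% and 11.8%. In that Klf13 region the best summit, around which patterns were counted, lay over 1000 bp from the second start. Its matches are thus not at that start itself. Within 50 bp, CCNCNCCC stood at 6 of 11 (54.5%, against 44.6%) and 7 of 21 (33.3%, against 18.8%). With so few regions these shares are a description, and a match is not a bound site.

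Relatives and partners of the 9 genes had open promoters at varying shares. The lists here were chosen with results of these data known. A promoter summit in all 4 lists was present at 3 of 8 other KLF genes (37.5%), 6 of 9 SP genes (66.7%), 9 of 10 KLF cofactor genes (90%) and 16 of 22 KLF1 target genes found in the annotation (72.7%), where 45.6% of all protein-coding genes had one. Of these 34 genes, 3 were higher in G1E-ER4 (8.82%) and 4 lower (11.8%), below the 12.7% and 13.9% of all genes with such a summit, so the genes named next are single cases. Klf7, a factor of neural development, stood at 72.5 and 76.5 in G1E-ER4, against 45.8 and 44.9 in G1E, and Sp6, a factor of tooth and skin, at 72.3 and 69.9 in G1E-ER4, against 57.2 and 11.0 in G1E. The promoter of the corepressor gene Ctbp2 stood at 38.8 and 90.8 in G1E-ER4, against 95.5 and 94.2 in G1E, and that of its relative Ctbp1 at 96.0 and 97.4 in G1E-ER4, against 96.8 and 96.5 in G1E.

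Among the targets with a summit in all 4 lists, Epb4.9, the dematin gene of the red cell membrane skeleton, was higher in G1E-ER4. It stood at 96.4 and 95.2, against 93.6 and 89.3 in G1E. Lower were the adhesion receptor gene Cd44 (50.3 and 89.7 in G1E-ER4, 91.8 and 95.1 in G1E), the membrane protein 4.2 gene Epb4.2 (82.8 and 88.0 in G1E-ER4, 89.3 and 88.6 in G1E) and the nuclear export gene Xpo7 (94.7 and 94.7 in G1E-ER4, 95.7 and 95.6 in G1E). The remaining 12 target promoters in all 4 lists overlapped between the states. Targets without a summit in all 4 lists could not be called. Hbb-b1 stood at 92.9 and 90.9 in G1E-ER4, with no summit in G1E list 1 and 61.7 in G1E list 2. Hbb-b2 had a summit in list 2 of each state, at 77.2 in G1E-ER4 and 29.2 in G1E. Alas2 (75.5) and Aqp1 (57.1) had one in G1E-ER4 list 2 only, and Alad (95.2) and Icam4 (94.45) in G1E list 1 only. Over the genes with a promoter summit in all 4 lists, median differences, G1E-ER4 less G1E, were 0.50 points for 3 other KLF genes, 0.01 for 6 SP genes, -1.05 for 9 cofactors and -1.20 for 16 targets, beside -0.88 for the 10198 genes of that kind. Over all genes found, with a missing summit counted as 0, they were 2.42 for 8 other KLF genes, 0.09 for 9 SP genes, -1.05 for 10 cofactors and -0.63 for 22 targets, beside 0 for 22372 genes. With 1 list left out, which loosens the rule so that counts could only stay or rise, the higher genes of these lists numbered 18 and 7 without G1E-ER4 lists 1 and 2 and 7 and 9 without G1E lists 1 and 2, and the lower ones 7, 20, 11 and 5.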

How the data were processed

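DNase-seq was measured in 1 estradiol-treated G1E-ER4 sample and 1 untreated G1E sample, each with 2 deposited peak lists. Per the series design text, short tags were aligned to mm9 with Bowtie, only the best placement of a tag with several was used, lanes were pooled within a replicate, SAMtools was used for conversion, and peaks were called per list from an F-seq density by a gamma fit. The sources used here do not give versions, depth or threshold. The value of a peak is the F-seq signal as the authors deposited it. No scaling between lists is stated, so it was used only for percentiles within a list. The score, p and q columns held no usable values.

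Genes and starts came from GENCODE vM1 protein-coding annotation on mm9, and peaks, regions, motifs and CpG ratios were counted in Python 3.11.15 with numpy 2.4.6 and pandas 2.3.3. The merging and classing of regions and the calls of higher and lower regions were tested on simulated peak lists. Motif and CpG counts were not part of that test. A promoter was a summit within 1000 bp of a start; since this misses the Klf1 promoter in 2 lists, a peak with any base within 1000 bp was added after seeing the data, as were values without Klf13, percentiles within the promoter class for the relatives and partners, and leaving out a list for those genes. The text names every member, its best promoter region, its 3 next regions in all 4 lists and every one-state region, for Klf1 and Klf3 every region in all 4 lists, and for relatives and partners up to 4 genes a list whose states do not overlap. A few other sites, named for 2 or 3 lists, the Klf3 summit shift and the other Klf13 regions were chosen after their values were seen. Of the marker genes listed for the check of cell type, 3 are not reported here, and the counts cover only the genes named. Members and gene lists were chosen with earlier results of these data known.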

Additional observations from a re-analysis of the deposited data

How the results depend on the processing

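Of 155 levels and differences recomputed under other settings, 134 stayed within 1 SD between lists of the reported value, 20 moved further and 1, the Klf10 promoter difference, went beyond it with a change of sign, to 49.2 with summits within 500 bp of a start. With 2 lists a state, a level or difference with 1 list left out cannot move by more than that SD. The 134 thus include values that were bound to stay, which say nothing about stability. Of 63 counts, 33 stayed within 1.5 times the reported count and 30 did not. A change of sign was found for 24 of 119 differences, within their SD but for that of Klf10: 11 of 18 for the promoter difference of Klf1 and Klf3 less the others, 2 of 20 for their distal percentile difference and 11 of 81 for single genes between the states. Examples are Klf5, at 18.3 points by the 1000 bp summit rule and -24.1 within 500 bp or without G1E-ER4 list 2, Klf4, at 11.7 and -32.8 without G1E-ER4 list 2, and Klf1, at 1.02 and -47.0 without G1E-ER4 list 1. Read depth is unknown, and each state has 1 sample with 2 lists. Counts could only stay or rise with a list left out, since fewer lists then had to meet the rule. Distal peaks per 10 kb could only stay or fall with weaker peaks left out or with distal set farther from a start. The cause of the other moves below was not tested. No paired analysis was possible because the groups share only replicate number 1, with 1 sample each.

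With summits chained at 150 bp in place of merged peaks, 21 regions were in every list, 7 in G1E-ER4 only and 10 in G1E only, and 1 shared region was lower in G1E-ER4. In the top 50% of each list, 1 region was G1E-ER4-only and 2 shared regions were lower, and distal peaks per 10 kb were 0.660 in G1E-ER4 and 0.762 in G1E for Klf1 and Klf3, and 0.510 and 0.623 for the others. In the top 20000 peaks, 15 regions were in every list, 0 in G1E only, 4 were higher and 1 lower. Klf1 and Klf3 had 0.856 distal peaks per 10 kb in G1E-ER4 and 1.12 in G1E with 10 kb flanks, 1.10 and 1.30 with 50 kb flanks, and 1.02 and 1.33 when distal meant over 2500 bp from a start. In those settings the others had 1.41, 1.05 and 1.06 in G1E-ER4, against 1.46, 1.06 and 1.03 in G1E, so the order of the groups turned in both states with 10 kb flanks and in G1E-ER4 with the 2500 bp rule. Without Klf13 the others had 0.800 in G1E-ER4 and 0.999 in G1E. The distal percentile difference in G1E-ER4 was 24.4 with 10 kb flanks. With 1 list left out, G1E-ER4-only regions ran from 5 to 27, G1E-only ones from 7 to 21, shared regions higher in G1E-ER4 from 13 to 17 and lower ones from 7 to 13, and relatives and partners that were higher from 7 to 18 and lower from 5 to 20. Ranked within promoter peaks, 2 relatives and partners were lower in G1E-ER4.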
